A study of Arabidopsis with 8 samples.

Results

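The 10 genes described here encode enzymes that make or inactivate gibberellins and a receptor that binds them. They were chosen by name: GA20OX1, GA20OX2 and GA20OX3, GA3OX1 and GA3OX2, GA2OX1, GA2OX2, GA2OX6 and GA2OX8, and GID1A. All 10 were found among the 25404 genes listed in at least 1 library, and 6 of the 10 were listed in all 8 libraries. RNA was sequenced from roots and from shoot parts of 5-day-old Arabidopsis thaliana seedlings. The 4 groups of 2 libraries were OE-SAUR41 roots, Col-0 roots, OE-SAUR41 shoots and Col-0 shoots. OE-SAUR41 overexpresses SAUR41, a gene of the SMALL AUXIN UP RNA family of small growth regulators, and Col-0 is the wild type. The sources used here give neither the promoter that drives SAUR41 nor the number of lines or the growth conditions.

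Gibberellins are diterpenoid hormones that promote germination, cell elongation and flowering. GA 20-oxidases carry out the successive oxidations that yield the direct precursors, GA 3-oxidases turn these into bioactive gibberellins, and GA 2-oxidases inactivate gibberellins or their precursors. Bound to its GID1 receptor, the hormone brings DELLA proteins, repressors of growth, to degradation. In Arabidopsis the pathway is under feedback: transcripts of some GA 20-oxidase, GA 3-oxidase and GID1 genes fall, and those of some GA 2-oxidase genes rise, when gibberellin action is high.

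Levels are given as FPKM, a fragment count per transcript length and library size, which can be set between genes because they are per length. SAUR41 reached 7996 and 4670 FPKM in OE-SAUR41 roots, against 4.64 and 7.46 FPKM in Col-0 roots. OE-SAUR41 shoots reached 10675 and 10248 FPKM, against 4.93 and 8.29 FPKM in Col-0 shoots, so every library matched its genotype label. The 5 shoot markers summed to 54.8 to 87.6 FPKM in roots and 20662 to 41965 FPKM in shoots, and the 6 root markers summed to 218 to 247 FPKM in roots and 6.05 to 9.53 FPKM in shoots. Of the root markers, the root hair genes EXPA7 and RHD6 were each listed in 1 of 4 shoot libraries, at 0.0757 and 0.0335 FPKM. COBL9 was listed in all shoot libraries but OE-SAUR41 shoot 2, at 0.281 FPKM at most. CASP1 (3.65 to 7.64 FPKM), CASP2 (0.540 to 0.954 FPKM) and NRT2.1 (0.920 to 1.82 FPKM) were listed in all 4. CASP1 shares its locus with another gene. The files listed 19573 to 23028 genes per library. The 2 Col-0 shoot libraries stood apart from each other: 29.1% of tested genes differed at least 2-fold between them, against 1.27% to 2.04% within the other groups. Whether both libraries of a group derive from independent cultures is not in the labels, and all p-values here rest on a spread between libraries that may be technical.

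Roots expressed the gibberellin-activating genes far more strongly than shoots did. GA3OX2 and GA3OX1 were called higher in roots in both genotypes, and so were the precursor-making GA20OX2 and GA20OX3 and the inactivating GA2OX6 and GA2OX8. GA20OX1 was the exception among the chosen synthesis genes, being lower in roots than in shoots, a difference called in OE-SAUR41. GA2OX2 and GID1A had no called difference between the organs in either genotype as deposited, though other settings below gave calls. Of all tested genes, 66.0% were called higher and 11.8% lower in roots in OE-SAUR41, and 52.7% and 13.2% in Col-0. GA3OX2, GA20OX2, GA20OX3 and GA2OX8 passed the filter on low values only through roots, and GA20OX1 only through shoots. The filter itself thus favoured the direction of these genes. Differences are given in log2(FPKM + 1), which understates the change of genes at low level, and were called at a limma adjusted p under 0.05 over 19863 tested genes. In bulk tissue, fewer cells of a type and less RNA per cell cannot be told apart.

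**Figure D1:**
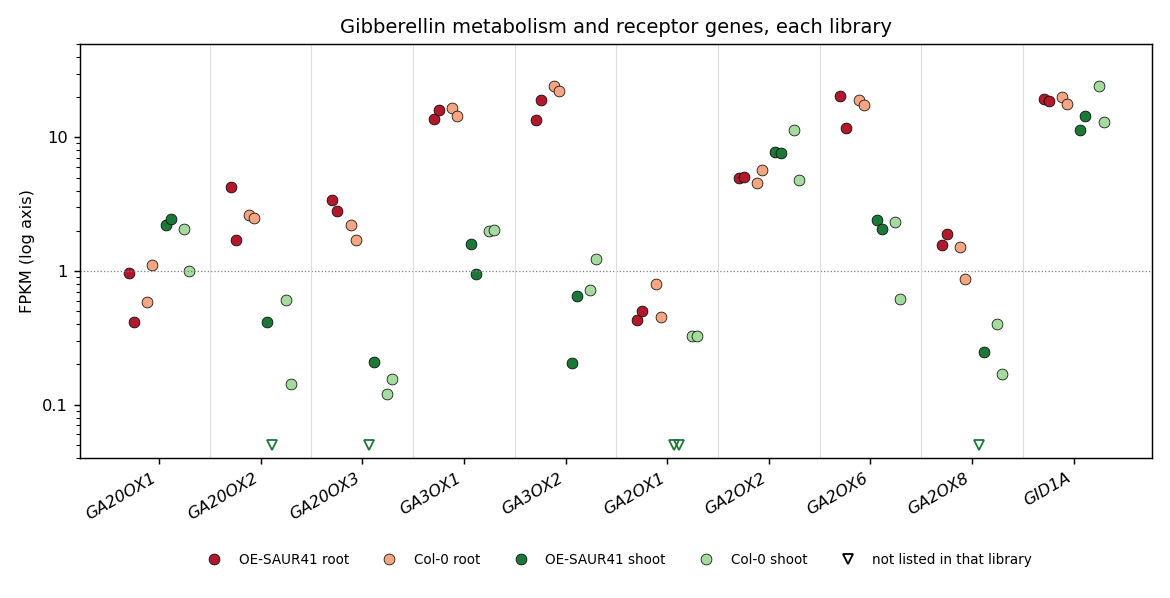
FPKM of the 10 genes in each of the 8 libraries, on a log axis, with root groups left of shoot groups and OE-SAUR41 left of Col-0 within an organ. Each point is 1 library, open triangles at the foot mark libraries that did not list the gene, and the dotted line marks 1 FPKM. GA3OX2 sits between 13.5 and 24.4 FPKM in the 4 root libraries and between 0.203 and 1.24 FPKM in the 4 shoot libraries.

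Among the GA 20-oxidase genes, GA20OX1 (AT4G25420, TAIR10 chromosome 4, 12990884 to 12992458), whose product is known for promoting stem elongation, was at 0.964 and 0.414 FPKM in OE-SAUR41 roots and 0.586 and 1.11 FPKM in Col-0 roots. In shoots it was at 2.22 and 2.47 FPKM in OE-SAUR41 and at 2.06 and 1.00 FPKM in Col-0. The root and shoot libraries of OE-SAUR41 did not overlap, while in Col-0 a root library lay above a shoot library. The root minus shoot difference was -1.005 (SE 0.30, limma adjusted p = 0.0160) in OE-SAUR41 and -0.44 (SE 0.30, limma adjusted p = 0.216) in Col-0. The OE-SAUR41 call was lost without OE-SAUR41 root 2 (-0.77, limma adjusted p = 0.101), without OE-SAUR41 shoot 1 (-1.06, limma adjusted p = 0.0535) and without OE-SAUR41 shoot 2 (-0.95, limma adjusted p = 0.0706).

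GA20OX2 (AT5G51810, chromosome 5, 21055188 to 21056808), which overlaps with GA20OX1 in its known functions, showed the reverse order. It had 4.23 and 1.71 FPKM in OE-SAUR41 roots, against 0.415 FPKM in OE-SAUR41 shoot 1 and no listing in shoot 2. Col-0 had 2.64 and 2.50 FPKM in roots and 0.602 and 0.144 FPKM in shoots. Roots lay above shoots without overlap in both genotypes, by 1.66 (SE 0.36, limma adjusted p = 0.00427) in OE-SAUR41 and 1.40 (SE 0.36, limma adjusted p = 0.0116) in Col-0. The Col-0 call was lost without Col-0 root 1 (limma adjusted p = 0.0617) and without Col-0 root 2 (limma adjusted p = 0.0536).

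GA20OX3 (AT5G07200, chromosome 5, 2243553 to 2245339) encodes another GA 20-oxidase. It had 3.39 and 2.80 FPKM in OE-SAUR41 roots, against no listing in OE-SAUR41 shoot 1 and 0.209 FPKM in shoot 2. Col-0 roots gave 2.22 and 1.69 FPKM, against 0.119 and 0.155 FPKM in Col-0 shoots. All 4 root libraries held it at low level, and the shoot libraries gave 0.209 FPKM at most. The root minus shoot difference was 1.89 (SE 0.21, limma adjusted p = 0.000204) in OE-SAUR41 and 1.37 (SE 0.21, limma adjusted p = 0.00108) in Col-0.

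The GA 3-oxidase genes, which serve the last activating step, were both higher in roots. GA3OX1 (AT1G15550, chromosome 1, 5344478 to 5346166) had 13.8 and 15.9 FPKM in OE-SAUR41 roots, against 1.58 and 0.945 FPKM in OE-SAUR41 shoots. In Col-0 it had 16.6 and 14.4 FPKM in roots, against 2.00 and 2.03 FPKM in shoots. No root library overlapped a shoot library, and the difference was 2.82 (SE 0.27, limma adjusted p = 0.000103) in OE-SAUR41 and 2.45 (SE 0.27, limma adjusted p = 0.000211) in Col-0.

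GA3OX2 (AT1G80340, chromosome 1, 30200693 to 30202200), which shares the step with GA3OX1 in vegetative tissue, had 13.5 and 19.2 FPKM in OE-SAUR41 roots, against 0.203 and 0.652 FPKM in OE-SAUR41 shoots. Col-0 roots had 24.4 and 22.1 FPKM, against 0.727 and 1.24 FPKM in Col-0 shoots. The difference of 3.60 (SE 0.32, limma adjusted p = 6.29e-05) in OE-SAUR41 was close to that of 3.62 (SE 0.32, limma adjusted p = 5.89e-05) in Col-0. These were the largest root minus shoot differences of the 10 genes in both genotypes.

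The GA 2-oxidase genes divided by organ. GA2OX6 (AT1G02400, chromosome 1, 486801 to 489577), which encodes an enzyme acting on bioactive gibberellins and their direct precursors, had 20.4 and 11.7 FPKM in OE-SAUR41 roots, against 2.41 and 2.07 FPKM in OE-SAUR41 shoots. In Col-0 it had 19.1 and 17.4 FPKM in roots, against 2.34 and 0.621 FPKM in shoots. All 4 root libraries lay above all 4 shoot libraries, by 2.35 (SE 0.41, limma adjusted p = 0.00174) in OE-SAUR41 and 3.05 (SE 0.41, limma adjusted p = 0.000569) in Col-0.

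GA2OX2 (AT1G30040, chromosome 1, 10537648 to 10539831), of the same enzyme class, was present in both organs. It had 4.93 and 5.07 FPKM in OE-SAUR41 roots, against 7.77 and 7.59 FPKM in OE-SAUR41 shoots. In Col-0 it had 4.59 and 5.72 FPKM in roots, against 11.4 and 4.79 FPKM in shoots. The OE-SAUR41 libraries did not overlap, whereas Col-0 shoot 2 lay between the Col-0 root libraries. The root minus shoot difference was -0.53 (SE 0.37, limma adjusted p = 0.221) in OE-SAUR41 and -0.46 (SE 0.37, limma adjusted p = 0.290) in Col-0. Dropping Col-0 shoot 2 gave a called Col-0 difference of -1.01 (limma adjusted p = 0.00379), and dropping Col-0 shoot 1 gave 0.08. The OE-SAUR41 difference, with the same value, was called in the fits without Col-0 shoot 1 (limma adjusted p = 0.0209) or Col-0 shoot 2 (limma adjusted p = 0.0199).

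GA2OX8 (AT4G21200, chromosome 4, 11302685 to 11306601) encodes an enzyme of the class that acts on early precursors. It had 1.56 and 1.90 FPKM in OE-SAUR41 roots, against no listing in OE-SAUR41 shoot 1 and 0.249 FPKM in shoot 2. Among Col-0 libraries, roots had 1.51 and 0.877 FPKM and shoots 0.399 and 0.169 FPKM. Roots lay above shoots without overlap, by 1.29 (SE 0.23, limma adjusted p = 0.00181) in OE-SAUR41 and 0.76 (SE 0.23, limma adjusted p = 0.0210) in Col-0. Quantile normalization turned the Col-0 difference to -0.08, and the Col-0 call was lost without Col-0 root 1 (limma adjusted p = 0.114) and without Col-0 shoot 2 (limma adjusted p = 0.0682).

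GA2OX1 (AT1G78440, chromosome 1, 29511599 to 29513051), which encodes a further enzyme acting on bioactive gibberellins, had the lowest root median of the 10. It had 0.429 and 0.500 FPKM in OE-SAUR41 roots and 0.796 and 0.453 FPKM in Col-0 roots. Neither OE-SAUR41 shoot library listed it, and the Col-0 shoot libraries gave 0.327 and 0.326 FPKM. It never reached 1 FPKM and so was not among the 19863 tested genes. In a fit without a filter its root minus shoot difference was 0.55 (SE 0.10, limma adjusted p = 0.00540) in OE-SAUR41, a call, and 0.28 (SE 0.10, limma adjusted p = 0.0618) in Col-0. In the same fit OE-SAUR41 minus Col-0 was -0.41 (limma adjusted p = 0.269) in shoots and -0.14 (limma adjusted p = 1) in roots.

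GID1A (AT3G05120, chromosome 3, 1430471 to 1432778), a soluble gibberellin receptor that acts alongside GID1B and GID1C, was well expressed in both organs. It had 19.3 and 18.6 FPKM in OE-SAUR41 roots, against 11.3 and 14.5 FPKM in OE-SAUR41 shoots. In Col-0 it had 20.02 and 17.7 FPKM in roots, against 24.3 and 13.0 FPKM in shoots. The OE-SAUR41 organs did not overlap, and the Col-0 shoot libraries lay on both sides of the Col-0 roots. The root minus shoot difference was 0.53 (SE 0.30, limma adjusted p = 0.140) in OE-SAUR41 and 0.07 (SE 0.30, limma adjusted p = 0.832) in Col-0, and TMM scaling turned both round, to -0.85 (limma adjusted p = 0.00818) and -0.91 (limma adjusted p = 0.00654). The OE-SAUR41 difference of 0.53 was called in the fits without Col-0 shoot 1 (limma adjusted p = 0.0114) or Col-0 shoot 2 (limma adjusted p = 0.0113). The Col-0 difference was 0.50 (limma adjusted p = 0.0362) when Col-0 shoot 1 was dropped and -0.35 when Col-0 shoot 2 was.

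Of the 9 members tested, 6 were called higher in roots and 1 lower in OE-SAUR41, where 66.0% of all tested genes were called higher and 11.8% lower. In Col-0, 6 were called higher and 0 lower, against 52.7% and 13.2% of all tested genes. These counts lie near the background. Root and shoot libraries did not overlap for 9 of 9 members in OE-SAUR41, against 92.9% of all tested genes, and for 6 of 9 in Col-0, against 84.0%. Of the 9 members, 4 (GA3OX2, GA20OX2, GA20OX3 and GA2OX8) reached 1 FPKM in 2 libraries, the condition for being tested, only among roots, and GA20OX1 only among shoots. The condition itself favoured the direction each of these 5 shows, so the counts lend the directions no support. Of all tested genes, 20.8% entered only through roots and 4.67% only through shoots. The whole distribution was shifted: the median difference of all tested genes was 1.22 in OE-SAUR41 and 0.91 in Col-0, and 84.8% and 80.0% of the calls were higher in roots. Under TMM scaling, which sets libraries level on their shared genes, the medians were 0.12 and 0.09, and 52.2% and 48.2% of the calls were higher in roots.

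The members depended on this shift to different degrees. GA3OX2, GA3OX1, GA2OX6 and GA20OX3 were called higher in roots in both genotypes under TMM scaling too, with GA3OX2 at 2.75 in OE-SAUR41 and 2.76 in Col-0. GA3OX1 was at 1.73 and 1.56, GA2OX6 at 1.15 and 2.26, and GA20OX3 at 1.37 and 0.91. All scalings used the same filter. It favoured higher values in roots for GA3OX2, GA20OX3, GA20OX2 and GA2OX8, and lower ones for GA20OX1. GA20OX1, GA2OX2 and GID1A were called lower in roots under TMM scaling in both genotypes. In all it called 6 members higher and 3 lower in OE-SAUR41, against 28.1% and 25.8% of all tested genes. In Col-0 it called 4 and 3, against 20.3% and 21.8%. GA20OX1 was then at -1.87 in OE-SAUR41 and -0.92 in Col-0, and GA2OX2 at -1.80 and -1.33. GA20OX2 and GA2OX8 were called higher in OE-SAUR41 (1.09 and 0.83) but not in Col-0 (0.90, limma adjusted p = 0.0670, and 0.38, limma adjusted p = 0.232). Quantile normalization, which gives every library the same distribution, kept the calls of GA3OX2, GA3OX1 and GA2OX6 in both genotypes. It called GA20OX1 lower in roots at -2.15 in OE-SAUR41 and -1.21 in Col-0, and GA2OX2 at -1.73 and -1.35. GID1A was called lower in Col-0 (-0.63, limma adjusted p = 0.0283) but not in OE-SAUR41 (-0.45, limma adjusted p = 0.0830). In OE-SAUR41 4 members were called higher and 2 lower, against 6464 and 4545 of 19863 tested genes. In Col-0 there were 3 and 3, against 5650 and 4332. Under quantile normalization GA20OX3 was called in OE-SAUR41 (0.93, limma adjusted p = 0.0160) but not in Col-0 (0.46, limma adjusted p = 0.170). GA20OX2 then had no call in OE-SAUR41 (0.69, limma adjusted p = 0.128) or Col-0 (0.51, limma adjusted p = 0.253), nor did GA2OX8 (0.38, limma adjusted p = 0.260, and -0.08, limma adjusted p = 0.827).

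**Figure D2:**
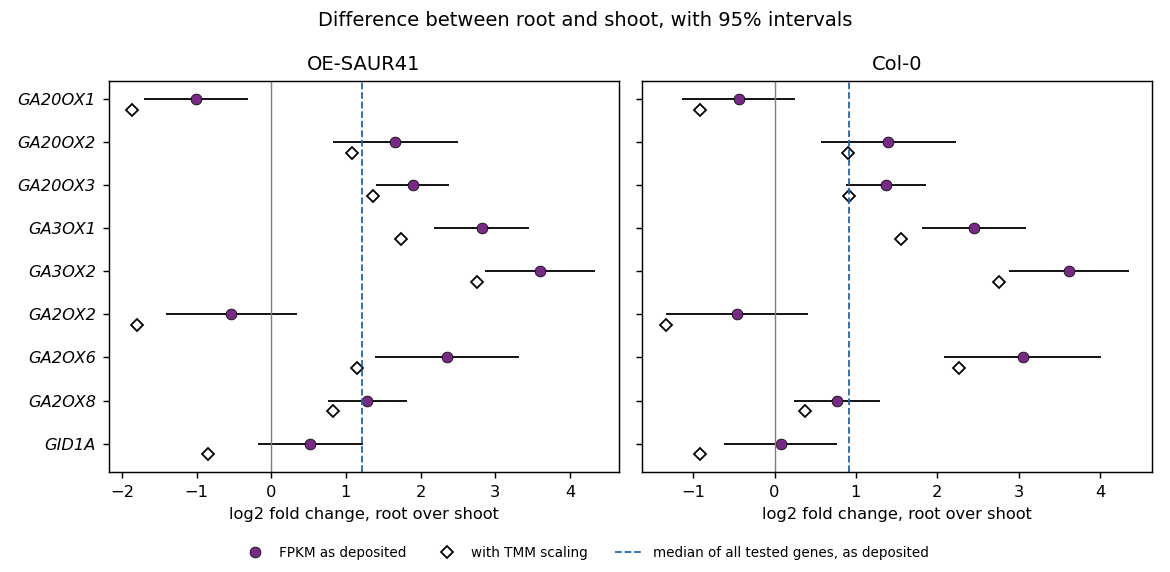
Root minus shoot difference of the 9 tested genes in log2(FPKM + 1), in OE-SAUR41 and Col-0. Filled points with 95% intervals are as deposited, diamonds are under TMM scaling, and the lines mark 0 and the median of all tested genes as deposited. GA3OX2 lies at 3.60 in OE-SAUR41 and 3.62 in Col-0, and GID1A is positive as deposited (0.53 and 0.07) and negative under TMM scaling (-0.85 and -0.91).

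Among the GA20OX and the GA2OX members the leading gene differed between the organs, a comparison inside a library that no scaling factor alters. Of the summed FPKM of the 3 GA20OX members, GA20OX1 made up 11.2% and 8.40% in OE-SAUR41 roots, against 84.3% and 92.2% in OE-SAUR41 shoots. In Col-0 it made up 10.8% and 20.9% in roots, against 74.1% and 77.1% in shoots. Its share was lower in every root library than in every shoot library, with GA20OX2 and GA20OX3 making up the remainder in roots.

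Of the 4 GA2OX members, GA2OX6 made up 74.7% and 61.1% in OE-SAUR41 roots, against 23.6% and 20.9% in OE-SAUR41 shoots. In Col-0 it made up 73.5% and 71.1% in roots, against 16.2% and 10.5% in shoots. GA2OX2 took its place in shoots, with 76.4% and 76.6% in OE-SAUR41 and 78.7% and 81.1% in Col-0. The GA2OX2 share varied little there, although the sum of the 4 genes was 10.2 and 9.90 FPKM in OE-SAUR41 shoots and 14.4 and 5.91 FPKM in Col-0 shoots.

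GA3OX1 and GA3OX2 divided their sum nearly evenly in roots, GA3OX2 leading in 3 of the 4 libraries, with GA3OX2 at 49.5% and 54.6% of their sum in OE-SAUR41 and 59.5% and 60.5% in Col-0. In shoots GA3OX2 was the minor gene, at 11.4% and 40.8% in OE-SAUR41 and 26.6% and 37.9% in Col-0. In shoots the OE-SAUR41 libraries had both the lowest and the highest GA3OX2 share. GID1A was 31.8% and 27.2% of the 3 receptor transcripts in OE-SAUR41 roots, against 51.9% and 46.9% in OE-SAUR41 shoots. In Col-0 it was 29.7% and 29.2% in roots, against 61.9% and 55.7% in shoots. GID1B was the leading receptor transcript in roots, at 50.2% and 53.0% in OE-SAUR41 and 49.6% and 51.9% in Col-0.

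**Figure D3:**
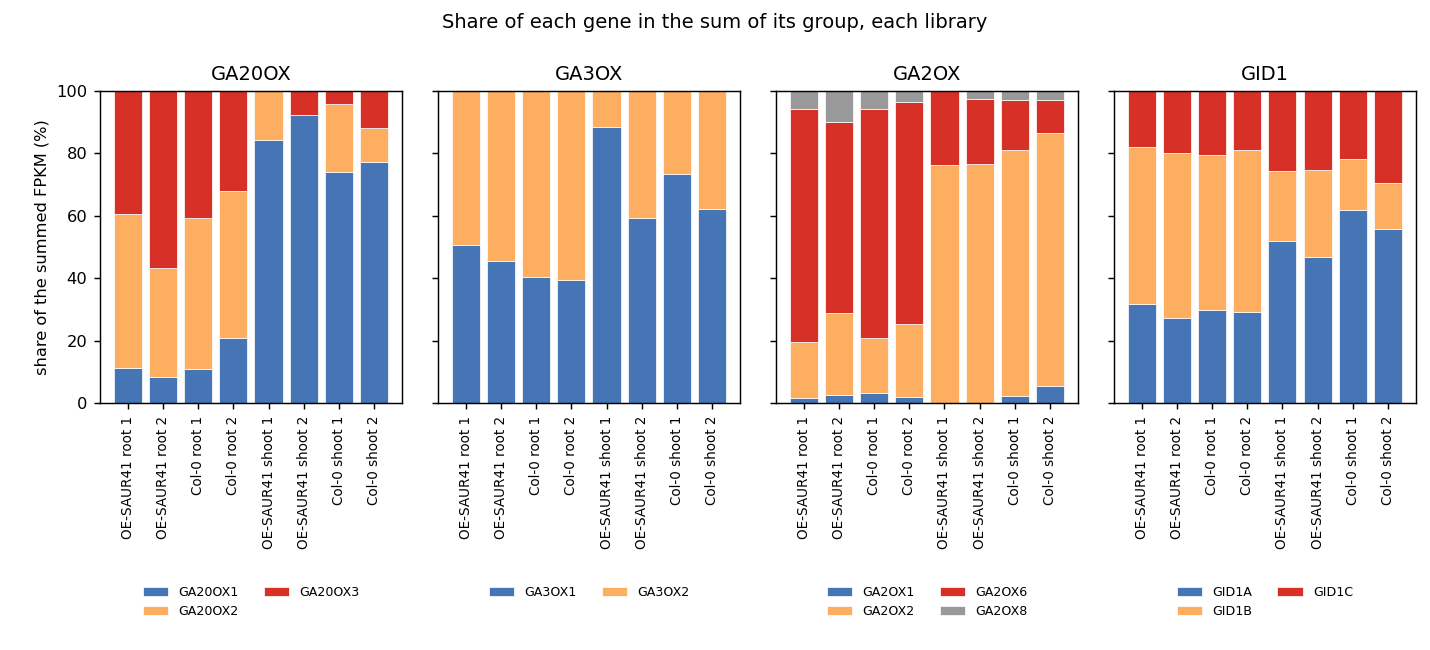
Share in percent of each gene in the summed FPKM of its family in each of the 8 libraries (3 GA20OX, 2 GA3OX and 4 GA2OX members, and the 3 GID1 receptors), root libraries left of shoot libraries and OE-SAUR41 left of Col-0. GA20OX1 makes up 8.40% to 20.9% of its family in roots and 74.1% to 92.2% in shoots.

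The ratio of the summed GA3OX to the summed GA2OX members also differed by organ. The summed FPKM of GA3OX1 and GA3OX2 was 1.00 and 1.83 times that of the 4 GA2OX members in OE-SAUR41 roots, against 0.175 and 0.161 times in OE-SAUR41 shoots. In Col-0 roots it was 1.58 and 1.49 times, against 0.189 and 0.554 times in Col-0 shoots. All 4 root libraries lay above all 4 shoot libraries, and the highest shoot value was that of Col-0 shoot 2. The ratio leaves out other inactivating genes, among them GA2OX9, ELA1 and ELA2, which had higher FPKM in roots than in shoots. It is a ratio of transcripts, and enzyme activity was not measured.

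Ordered by their median over the 4 root libraries, GA3OX2 (20.6 FPKM), GID1A (18.9 FPKM), GA2OX6 (18.2 FPKM) and GA3OX1 (15.2 FPKM) led, and their ranges overlapped one another at each step. GA2OX2 (5.00 FPKM) stood alone below them, its range of 4.59 to 5.72 FPKM clear of GA3OX1 above and of GA20OX2 below. GA20OX2 (2.57 FPKM) and GA20OX3 (2.51 FPKM) overlapped, and so did GA20OX3, GA2OX8 (1.54 FPKM), GA20OX1 (0.775 FPKM) and GA2OX1 (0.476 FPKM), each with its neighbour. In shoots GID1A (median 13.8 FPKM, 11.3 to 24.3) and GA2OX2 (7.68 FPKM, 4.79 to 11.4) led and their ranges met by a narrow margin. GA2OX6 (2.20 FPKM), GA20OX1 (2.14 FPKM) and GA3OX1 (1.79 FPKM) overlapped one another and lay below all GA2OX2 values. GA3OX2 (0.689 FPKM) followed, its range of 0.203 to 1.24 FPKM reaching into theirs, and the other 4 genes stayed at or under 0.602 FPKM in every shoot library.

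SAUR41 overexpression was not accompanied by a called change of any gibberellin gene in roots. Of the 9 members tested, 0 were called, against 0.00503% of all tested genes, which is the 1 gene SAUR41 itself. By limma 340 genes of the whole table had an unadjusted p under 0.05, and no tested member was among them. In the fit without a filter GA20OX3 had an unadjusted limma p of 0.0321 and was not called. The members' differences ran from -0.50 for GA3OX2 to 0.47 for GA20OX3, with 4 above and 5 below 0 and a median of -0.03, the same to 2 decimals as that of all tested genes (-0.03).

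GA20OX3 averaged 3.096 ± 0.41 FPKM in OE-SAUR41 roots and 1.96 ± 0.38 FPKM in Col-0 roots (SD, n = 2 each), both OE-SAUR41 libraries lying above both Col-0 libraries. Its log2 difference was 0.47 (SE 0.21, 95% interval -0.02 to 0.96, limma adjusted p = 1). GA3OX2 averaged 16.3 ± 4.0 FPKM in OE-SAUR41 roots and 23.2 ± 1.6 FPKM in Col-0 roots (SD, n = 2 each), again without overlap but in the other direction. Its difference was -0.50 (SE 0.32, 95% interval -1.24 to 0.24, limma adjusted p = 1). GA2OX8 averaged 1.73 ± 0.24 FPKM in OE-SAUR41 roots and 1.19 ± 0.45 FPKM in Col-0 roots (SD, n = 2 each), a difference of 0.33 (SE 0.23, limma adjusted p = 1). These were the 3 of 9 members whose genotypes did not overlap in roots, against 31.1% of all tested genes, 11.5% above and 19.6% below.

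The other members of the root comparison overlapped between genotypes. GID1A averaged 18.9 ± 0.48 FPKM in OE-SAUR41 roots and 18.9 ± 1.6 FPKM in Col-0 roots (SD, n = 2 each), with a 95% interval of -0.69 to 0.70 for the log2 difference. GA2OX2 averaged 5.00 ± 0.10 FPKM in OE-SAUR41 roots and 5.16 ± 0.80 FPKM in Col-0 roots (SD, n = 2 each). GA3OX1 averaged 14.9 ± 1.5 FPKM in OE-SAUR41 roots and 15.5 ± 1.5 FPKM in Col-0 roots (SD, n = 2 each). Spread was wide inside OE-SAUR41 roots, where replicate 1 was 2.47 times replicate 2 for GA20OX2, 2.33 times for GA20OX1 and 1.74 times for GA2OX6. In Col-0 roots replicate 1 was 0.530 times replicate 2 for GA20OX1, 1.06 times for GA20OX2 and 1.10 times for GA2OX6. The 95% intervals of their log2 differences ran from -0.76 to 0.91 for GA20OX2 and from -0.83 to 0.56 for GA20OX1. For GA2OX6 the interval ran from -1.18 to 0.74. Differences of either sign within these intervals are not excluded, and the intervals set no limit of detection.

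**Figure D4:**
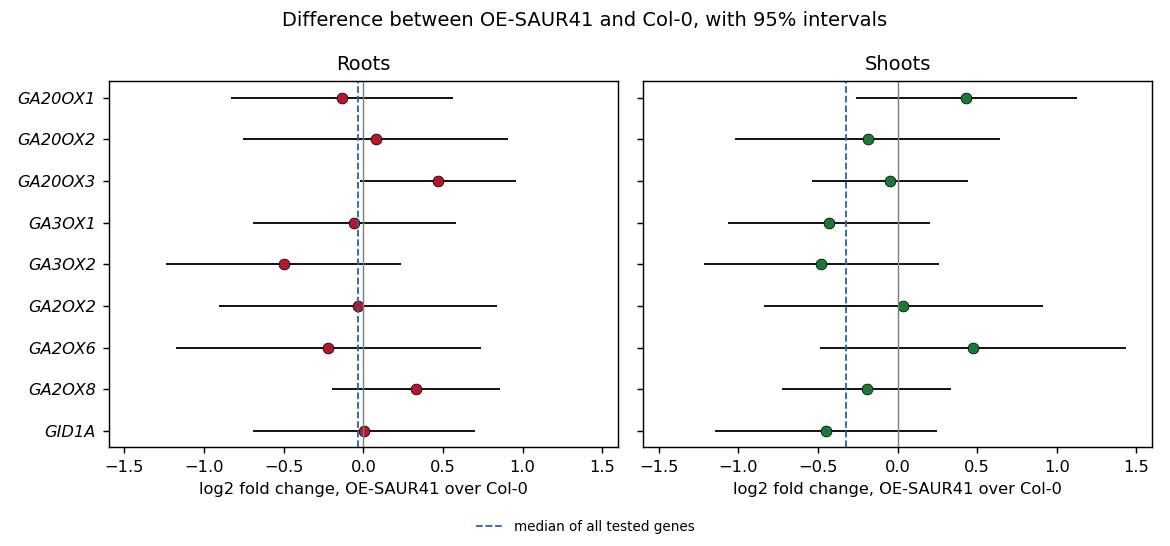
OE-SAUR41 minus Col-0 difference of the 9 tested genes in log2(FPKM + 1), in roots and in shoots, with 95% intervals from limma; the lines mark 0 and the median of all tested genes (-0.03 in roots, -0.32 in shoots). Every interval crosses 0, and GA3OX2 lies at -0.50 in roots and -0.48 in shoots.

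In shoots too, 0 of the 9 members were called, against 0.0201% of all tested genes (4 genes, of which 2 were higher). By limma 2790 genes had an unadjusted p under 0.05, and no tested member was among them. GA2OX1, not tested here, had an unadjusted limma p of 0.00741 in the fit without a filter (limma adjusted p = 0.269). The median of all tested genes was itself -0.32, so differences below 0 were the rule, and the members' median was -0.19 with 3 above and 6 below 0. GA20OX1 was the 1 tested member above Col-0 in both libraries, and the 2 GA3OX genes lay below Col-0 in both.

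GA20OX1 averaged 2.35 ± 0.18 FPKM in OE-SAUR41 shoots and 1.53 ± 0.75 FPKM in Col-0 shoots (SD, n = 2 each), both OE-SAUR41 libraries lying above both Col-0 libraries. Its difference was 0.43 (SE 0.30, limma adjusted p = 0.472), with 0.13 when Col-0 shoot 2 was left out and 0.74 when Col-0 shoot 1 was. GA3OX1 averaged 1.26 ± 0.45 FPKM in OE-SAUR41 shoots and 2.02 ± 0.02 FPKM in Col-0 shoots (SD, n = 2 each), a difference of -0.43 (SE 0.27, limma adjusted p = 0.447). GA3OX2 averaged 0.428 ± 0.32 FPKM in OE-SAUR41 shoots and 0.983 ± 0.36 FPKM in Col-0 shoots (SD, n = 2 each), a difference of -0.48 (SE 0.32, limma adjusted p = 0.457). These were the 3 of 9 members without overlap in shoots, against 39.7% of all tested genes, 7.26% above and 32.5% below. Set against the median of all tested genes, GA3OX1 and GA3OX2 lay 0.11 and 0.16 below it and GA20OX1 0.76 above it. The GA20OX1 difference was 0.85 under TMM scaling (limma adjusted p = 0.182) and 0.87 under quantile normalization (limma adjusted p = 0.145).

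GA2OX1, GA20OX2, GA20OX3 and GA2OX8 were each unlisted in at least 1 OE-SAUR41 shoot library, while both Col-0 shoot libraries listed all 4. All 4 were at or under 0.602 FPKM in Col-0 shoots, and OE-SAUR41 shoots also listed fewer genes in all, 19573 and 19824 against 21722 and 20851 in Col-0 shoots. The part of depth in these missing values was not tested.

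The Col-0 shoot libraries decided several values. GA2OX2 was 2.37 times, GA2OX6 3.77 times and GID1A 1.87 times as high in Col-0 shoot 1 as in Col-0 shoot 2, while the same ratio was 0.985 for GA3OX1. Across tested genes that share no locus, the gap between these libraries followed the span of the gene (Spearman's rho 0.61). The same rho was 0.31 in OE-SAUR41 roots, -0.36 in Col-0 roots and -0.01 in OE-SAUR41 shoots. Genes are not independent replicates. The shoot markers summed to 20662 FPKM in Col-0 shoot 1 and 41965 FPKM in Col-0 shoot 2, against 34770 and 34352 FPKM in OE-SAUR41 shoots. The part of gene span or of the marker gap in the members' values was not tested. In OE-SAUR41 minus Col-0 the difference of GID1A was -0.45 (SE 0.30, limma adjusted p = 0.463). Without Col-0 shoot 2 it was -0.87 and was called lower (limma adjusted p = 0.00623), in a fit that called 9864 genes and put the median of all genes at -0.58. Without Col-0 shoot 1 it was -0.02, and with the gene length trend removed it was -0.13. GA2OX6 had a difference of 0.47 (SE 0.41, limma adjusted p = 0.540), which was 1.00 when Col-0 shoot 1 was dropped, -0.05 when Col-0 shoot 2 was and 0.93 under TMM scaling (limma adjusted p = 0.255). GA2OX2 had a difference of 0.04 (SE 0.37, limma adjusted p = 0.978), with 0.58 and -0.51 in the same order.

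Whether the genotype effect differed between the organs was tested as an interaction. In it 0 of the 9 members were called, against 0.0% of all tested genes, and by limma 948 genes had an unadjusted p under 0.05. The root effect minus the shoot effect ran from -0.69 (SE 0.58) for GA2OX6 to 0.53 (SE 0.32) for GA2OX8, with limma adjusted p from 0.807 to 0.991. GA3OX2 had the value closest to 0, -0.02 (SE 0.45, 95% interval -1.06 to 1.02). GID1A was at 0.45 (SE 0.42, limma adjusted p = 0.807), and at 0.88 (limma adjusted p = 0.0264) without Col-0 shoot 2.

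The rest of the pathway was read from 8 lists of 41 other genes, of which 39 were listed and 30 tested. In roots 0 of the 30 were called between the genotypes, 13 lying above and 17 below 0 with a median of -0.04. The largest positive difference was 0.67 (SE 0.23, limma adjusted p = 1) for GASA14, a gene for a gibberellin-regulated cysteine-rich protein, and the largest negative one was -0.62 (SE 0.30, limma adjusted p = 1) for SWEET14, a sugar and gibberellin transporter. In shoots 1 of the 30 was called, the gibberellin-regulated GASA1, at 1.96 (SE 0.18, limma adjusted p = 0.0390). GASA1 was called in 7 of 17 alternatives, its difference ranging from 1.72 to 2.41. The largest negative difference in shoots was -1.43 (SE 0.37, limma adjusted p = 0.246) for GAF1, a zinc finger protein that works with DELLA proteins. In all, 6 list genes lay above and 23 below 0 in shoots, with a median of -0.23 beside -0.32 for all tested genes.

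Between the organs, 14 of the 30 were called higher and 8 lower in roots in OE-SAUR41, against 66.0% and 11.8% of all tested genes. In Col-0, 12 were called higher and 7 lower, against 52.7% and 13.2%. Under TMM scaling there were fewer higher and more lower calls, 6 and 12 in OE-SAUR41 against 28.1% and 25.8% of all tested genes, and 6 and 10 in Col-0 against 20.3% and 21.8%. KAO1, GA2OX9, ELA1, ELA2 and SWEET14 entered the test only through roots and GNC, GNL and GASA6 only through shoots, so the direction of these 8 was favoured by the filter. The inactivating ELA1 and ELA2, cytochrome P450 enzymes, were higher in roots in both genotypes and under both scalings. ELA1 differed by 2.24 (SE 0.23) in OE-SAUR41 and 2.36 (SE 0.23) in Col-0, with limma adjusted p of 0.000155 and 0.000117. GID1B differed by 2.19 (SE 0.33, limma adjusted p = 0.000912) in OE-SAUR41 and 2.54 (SE 0.33, limma adjusted p = 0.000475) in Col-0, and it too was called under TMM scaling. GID1C was called higher in OE-SAUR41 (0.78, limma adjusted p = 0.0287), and TMM scaling turned it to -0.54 without a call. GA2OX9, the 1 tested gene of 8 other oxidases, was higher in roots by 1.72 in OE-SAUR41 and 1.41 in Col-0.

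Of the 5 DELLA genes, 0 were called higher in roots. In OE-SAUR41, 3 were called lower (GAI at -0.96, RGL1 at -0.89 and RGL3 at -0.71), against 11.8% of all tested genes, and 2 lay above 0 without a call (RGL2 at 0.64 and RGA at 0.12). In Col-0, 2 were called lower (GAI at -1.39 and RGL1 at -0.67), against 13.2% of all tested genes, while RGL2 was at 0.70 and RGL3 at 0.31, both without a call. Under TMM scaling 4 were called lower in OE-SAUR41 and 3 in Col-0, where the shares of all tested genes were 25.8% and 21.8%. Of the 4 genes for DELLA turnover and modification, the F-box gene SNE was higher in roots by 1.83 in OE-SAUR41 and 2.19 in Col-0, and SPY and SEC, whose products attach sugars to DELLA proteins, were higher by 1.85 and 1.71 in OE-SAUR41 and by 1.29 and 0.99 in Col-0. Under TMM scaling SNE was called and SPY and SEC were not. Of the 5 early synthesis genes 4 were tested. KO, for ent-kaurene oxidase, was higher in roots by 1.69 in OE-SAUR41 and 1.03 in Col-0, and KAO1 by 1.36 in OE-SAUR41. Under TMM scaling 0 of the 4 were called higher in either genotype, and 1 was called lower in Col-0. Quantile normalization called 1 lower in each genotype. KAO2 had 3.77 and 3.49 FPKM in Col-0 roots, against 7.36 and 3.68 FPKM in Col-0 shoots.

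Of the 3 tested transporters, SWEET14 had 1.16 and 3.01 FPKM in OE-SAUR41 roots and 4.12 and 3.0 FPKM in Col-0 roots, was listed in no shoot library and was called in both genotypes. NPF3.1, a transporter, was lower in roots, at -1.52 in OE-SAUR41 and -1.45 in Col-0, but shares its locus with another gene. Of the 9 responsive or DELLA-associated genes, 3 were called higher and 4 lower in roots in each genotype, beside the shares of all tested genes given above. Under TMM scaling 0 were called higher, with 7 lower in OE-SAUR41 and 5 lower in Col-0. GASA6 and GASA14, which encode gibberellin-regulated peptides, were called lower in roots, with differences of -6.27 and -3.62 in OE-SAUR41 and -6.92 and -3.95 in Col-0. GNC, a GATA factor that promotes chloroplast development, stood at -2.06 in OE-SAUR41 and -2.99 in Col-0. GNL, a related GATA factor, was the remaining gene called lower in both genotypes. Called higher were SCL3, a regulator that opposes DELLA proteins, and XERICO in both genotypes, GAF1 in OE-SAUR41 (1.11, limma adjusted p = 0.0264) and GASA1 in Col-0 (1.41). Under TMM scaling XERICO was called lower in OE-SAUR41 (-0.84, limma adjusted p = 0.0322) and GAF1 in Col-0 (-0.92, limma adjusted p = 0.0137). RGL2, RGA, GNL, XERICO and GAF1 were named here after their values were seen.

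The genes whose pattern over the 8 libraries was most like that of a member, by Pearson's r of log2(FPKM + 1) among 13132 genes with a mean of at least 5 FPKM, are given as a description, since the libraries share organ and genotype. GA3OX1 was most like AT5G03700 (r = 0.999) and LSH9 (r = 0.999), and 3339 genes had an r over 0.95 with it. GA3OX2 was most like CP12-3 (r = 0.999) and IBH1 (r = 0.998), with 2739 such genes. GA2OX6 was most like AT1G21120 (r = 0.998) and AT1G14120 (r = 0.997), with 2363. GA20OX3 was most like AT2G16005 and GASA7 (r = 0.994 each), with 1555. GA20OX2 was most like CML45 (r = 0.992) and PEL1 (r = 0.990), with 835, and GA2OX8 was most like PAT07 (r = 0.988) and AT5G43960 (r = 0.984), with 425.

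For GID1A, GA2OX2 and GA20OX1, not called higher in roots as deposited, fewer genes had an r over 0.95, again as a description only. GID1A was most like AT1G70280 (r = 0.989) and AT5G13950 (r = 0.982), and 52 genes had an r over 0.95 with it. GA2OX2 was most like LECRK43 (r = 0.976) and AAE15 (r = 0.955), with 5 such genes. GA20OX1 was most like AT2G29340 (r = 0.940) and HR4 (r = 0.920), and 0 genes passed 0.95.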

How the data were processed

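The values are FPKM per gene, made by the authors and deposited as 1 table per library, per the file headers. The genome build was TAIR10, per the submitters' processing notes. No aligner, quantifier or strand setting is given in the sources used here. Coordinates were taken from the files and are counted from 1. The files hold no 0, and an unlisted gene was taken as 0. Steps between low values gave a depth of 0.623 to 0.863 relative to Col-0 root 1 for 4 libraries and no clear step for the other 3, so counting error was not estimated. After the values were seen, 3 genes that are no members were left out as failed estimates.

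The test covered genes that reached 1 FPKM in 2 or more of 8 libraries, on log2(FPKM + 1) with limma 3.58.1 in R 4.3.3 (4 group means, eBayes with trend, 4 residual and 3.53 prior degrees of freedom), two-sided, with Benjamini-Hochberg adjustment over all 19863 genes. The code was tested on simulated data. The alternatives were TMM scaling computed on FPKM without count weights, quantile normalization, pseudocounts of 0.1 and 5, filters at 0 and 5 FPKM, removal of a gene length trend, the libraries of a contrast alone, a replicate block and leaving out each library. The members, lists and alternatives were chosen with earlier results of these data known. The 8 lists hold early synthesis, other oxidases, other inactivation, other receptors, DELLA repressors, DELLA turnover and modification, transporters, and responsive or DELLA-associated genes. Named were all 10 members in every comparison, up to 4 called genes per list and comparison (smallest adjusted p first), the list genes with the largest rise and fall between genotypes, and for each tested member the 2 genes most like it. Tables were made in pandas 2.3.3 and numpy 2.4.6 under Python 3.11.15, and plots in matplotlib 3.10.9.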

Additional observations from a re-analysis of the deposited data

How the results depend on the processing

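Over 730 recomputed values of the members, 662 kept their direction and their side of the threshold, 14 lost and 17 gained a call and 37 changed sign. Many of these values could not change direction. A difference between groups stays the same under another filter, a replicate block, its own libraries alone or the loss of an outside library. The 662 are therefore no measure of robustness. Counts of called genes also moved. In roots 1 gene was called as reported, with 3 at a pseudocount of 0.1, 3 at a pseudocount of 5, 9 without a filter, 2 with the gene length trend removed, 8 from the libraries of the contrast alone and 1 to 9 when each library was left out. In shoots 4 were called, with 30 at a pseudocount of 0.1, 17 at 5, 8 without a filter, 19 with a filter at 5 FPKM, 24 under quantile normalization, 81 with the gene length trend removed, 1 from the contrast alone and 1 to 9864 when each library was left out. The interaction called 0 genes, with 2 without a filter and 0 to 6888 when each library was left out. Between organs, Col-0 had 13094 calls, with 8369 under TMM scaling, 8309 from the contrast alone and 7845 to 16335 when each library was left out. In OE-SAUR41 there were 15452 calls, and 11273 to 17240 when each library was left out. Where leaving out a library left its group with 1, that library was taken to vary as the other groups do. From the OE-SAUR41 libraries alone, GA2OX2 was called lower and GID1A higher in roots. GA2OX2 was also called lower in OE-SAUR41 roots with the gene length trend removed (-0.65, limma adjusted p = 0.0342). The cause was not tested for any of these.

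Whether replicate numbers pair the samples was not settled. The correlation of same-numbered deviations ran from -0.218 to 0.459 over the pairs of groups, and was highest for OE-SAUR41 roots with Col-0 shoots. With the replicate number as a block, the calls were 1 in roots, 1 in shoots against 4 without the block, 0 in the interaction, 13522 between organs in Col-0 and 15563 in OE-SAUR41, and no member's call changed.

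Signs changed as follows, with the cause not tested. In roots GA3OX1 was 0.0138 and GA2OX2 0.0188 with the gene length trend removed, and GA2OX2 was 0.0047 under quantile normalization. In shoots GA20OX2 was 0.0193, GA20OX3 0.19 and GA2OX8 0.29 with the gene length trend removed. In the interaction GA3OX1 was -0.0081 under quantile normalization and GA3OX2 0.62 at a pseudocount of 0.1. Between organs GID1A was -0.45 in OE-SAUR41 and -0.63 in Col-0 under quantile normalization and -0.85 and -0.91 under TMM scaling, and GA2OX8 was -0.0784 in Col-0 under quantile normalization. When each library was left out, root differences ran from -0.37 to 0.10 for GA20OX1, -0.40 to 0.55 for GA20OX2, -0.15 to 0.0378 for GA3OX1, -0.16 to 0.10 for GA2OX2, -0.59 to 0.15 for GA2OX6 and -0.0781 to 0.0875 for GID1A. Shoot differences ran from -0.44 to 0.0636 for GA20OX2, -0.18 to 0.0894 for GA20OX3, -0.51 to 0.58 for GA2OX2 and -0.0474 to 1.00 for GA2OX6. Interaction values ran from -0.21 to 0.74 for GA20OX2, -0.26 to 0.22 for GA3OX2 and -0.62 to 0.48 for GA2OX2, and Col-0 organ differences from -1.01 to 0.0823 for GA2OX2 and -0.35 to 0.50 for GID1A.

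FPKM without counts gives no counting error, so members under 1 FPKM in shoots are limited most. With 2 libraries a group, no exact permutation test can pass 0.05, and none was used.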
